A study of Mus musculus with 10 samples.

Results

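Cytotoxic lymphocytes, the CD8 T cells and natural killer (NK) cells, share a set of genes for killing and for recognising targets. A list of 38 such genes was followed in CD4+CD25+ T cells, the lymph node fraction that holds most regulatory T (Treg) cells, of mice that lacked 1 or both copies of the phosphatase SHP-1. Each gene was read at 1 probe set, the one with the highest mean among those whose platform annotation names that gene alone, and 36 of the 38 were measured this way, among 18193 genes with such a probe set. Zfp683, which encodes the transcription factor Hobit, had no probe set in the annotation. Klrb1c, the gene of the NK receptor NK1.1, shares its only probe set with Klrb1b and is given apart. The members fall into 4 roles: 11 granule genes, 14 measured receptors and surface molecules, 6 chemokines, cytokines and death ligands, and 5 measured transcription factors and kinases.

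The arrays came from 3 genotypes on the BALB/c strain: homozygous for loss of SHP-1, labelled a knockout (me, for motheaten, 3 arrays), heterozygous (he, 3 arrays) and wild type (WT, 4 arrays). All mice were 17 to 19 days old, and the cells of several pooled lymph node sites were taken with a CD4+CD25+ isolation kit and used without culture. RNA was amplified from 20 ng before labelling and hybridised to 1 Affymetrix array per sample. The labels name the samples biological replicates, give no allele and do not say how many mice each holds, so the p-values measure the spread between these samples.

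Killing by these cells rests on secretory granules, in which perforin makes pores in the target membrane and granzymes, a family of serine proteases, enter and cleave proteins of the target. Lectin-like receptors of the NK gene complex, such as NKG2D and the CD94-NKG2A pair, tell the cell which targets to spare or attack, and the T-box factors Eomes and T-bet drive much of the programme. SHP-1, encoded by Ptpn6, is the tyrosine phosphatase recruited by inhibitory receptors that carry an immunoreceptor tyrosine-based inhibition motif, CD94-NKG2A among them. Treg cells, defined by Foxp3, are known to express some of these genes as well, granzyme B and Klrg1 among them, mostly when activated.

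Levels are log2(intensity + 32) after quantile normalisation, and differences are between means on that scale. Ptpn6 at its brighter probe set was 8.84, 9.08 and 9.05 in me arrays, 9.30, 9.33 and 9.54 in he arrays, and 9.55, 9.63, 9.83 and 9.81 in WT arrays, in the order of the lost copies. The 7 Treg markers, Foxp3 (mean 11.11) and Cd4 (mean 9.44) among them, were all at or above the median probe set (7.64). The strongest split among the arrays did not follow genotype: by correlation over all probe sets they fell into set A (me 1, me 3, he 1, WT 1, WT 2) and set B (me 2, he 2, he 3, WT 3, WT 4), and the first principal component, which separates them, held 82.04% of the variance. Within set A, me 3 stood nearest to set B, at -25.33 on that component against -56.75 to -54.18 for the rest of the set. All he arrays were female by Xist and Eif2s3y, while me 1, me 2, WT 2 and WT 4 were male. Because the set adds spread that is shared by all genotypes, each difference is given without and with array set as a block. Array sets were defined from the data and their origin was not tested.

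No member passed the test in any comparison, with or without the block. Between me and WT arrays, limma called 0 of 45037 probe sets without a block (0%) and 3 with it (0.00666%), at an adjusted p threshold of 0.05. The members as a whole lay close to 0: 20 of 36 were above 0 without the block, with a median difference of 0.028, and 49.9% of all probe sets were above 0. With the block 23 of 36 were above 0, with a median of 0.094, against 46.3% of all probe sets. Over all genes, read at 1 probe set each as the members were, 9113 of 18193 were above 0 without the block and 8975 with it. Their medians were 0.00017 and -0.0015. The values that stand out are those of a few members. Cst7, Srgn, Klrk1 and Eomes were higher in all 3 me arrays than in all 4 WT arrays, which is 4 of 36 members, where 0.802% of all probe sets do so. None was lower in this way (0.835% of all probe sets). When each me array was set against the WT arrays of its own set only, 8 members were above every one of them in 3 of 3 me arrays: Klrg1, Cx3cr1, Ccl4 and Stat4 besides these 4. That holds for 4.35% of all probe sets, and 0 members were below in the same sense (7.85% of all probe sets). The count takes me 3 as an array of set A, although it stood nearest to set B. Ccl4 and Cx3cr1 were 1.11 and 1.07 higher in set B. At both, me 3 lay between the WT arrays of set A and those of set B. The samples are whole cell fractions, so a larger share of cells that hold a transcript and more transcript per cell cannot be told apart.

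Among the granule genes Cst7 and Srgn separated me from WT arrays, and Cst7 had the smallest adjusted p of any member with the block. Cst7, which encodes cystatin F, an inhibitor of the cathepsins that activate granzymes, had 9.77, 9.52 and 9.74 in me arrays, 9.16, 9.07 and 9.36 in he arrays, and 9.17, 9.37, 8.96 and 9.04 in WT arrays. Each me array was above each he array and each WT array. The gap between me and WT means was 0.54 ± 0.12 in log2 units (± SE), a 1.45-fold higher level, and 0.51 ± 0.096 with the block. Its adjusted p was 1 without the block and 0.604 with it, and ran over 0.219 to 1 across all settings tried, in which the difference stayed between 0.47 and 0.62. Within set A the difference was 0.48 and within set B 0.52.

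Srgn encodes serglycin, the proteoglycan core on which granzymes and perforin are packed. It had 13.33, 13.30 and 13.30 in me arrays, 13.15, 13.26 and 13.31 in he arrays, and 13.15, 12.91, 13.09 and 13.21 in WT arrays, so the me arrays lay within a narrow band above every WT array and among the he arrays. The difference was 0.22 ± 0.081 without the block and 0.24 ± 0.067 with it. This gap depended on the scaling between arrays, being 0.018 with no normalisation and 0.038 with centring on the array median.

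Granzyme B, the aspartate-specific protease that starts apoptosis in targets, was read at Gzmb. It had 10.72, 9.83 and 10.13 in me arrays, 10.21, 9.31 and 10.06 in he arrays, and 9.88, 10.21, 8.85 and 9.55 in WT arrays. The WT range holds all he values and all me values but that of me 1, and the difference of 0.60 ± 0.36 did not pass, nor did 0.49 ± 0.24 with the block. Against the WT mean of their own set, me 1 and me 2 stood at 0.68 and 0.63 and me 3 at 0.081, while he 3 stood at 0.86, higher than any me array. Gzmk, a tryptase-like granzyme, had 8.22, 7.46 and 8.15 in me arrays, 7.67, 7.43 and 7.34 in he arrays, and 7.70, 7.57, 7.54 and 7.35 in WT arrays. Its me arrays divide: me 1 and me 3, both of set A, were higher than every he and WT array, and me 2 was within their range. The difference was 0.40 ± 0.18, and 0.34 ± 0.11 with the block, made up of 0.55 within set A and 0.012 within set B.

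The remaining granule genes did not separate the genotypes. Gzma, the tryptase-like granzyme A, had 7.97, 8.64 and 7.93 in me arrays, 8.05, 8.82 and 8.03 in he arrays, and 7.86, 7.63, 8.68 and 8.12 in WT arrays. The high values belong to me 2, he 2 and WT 3, 1 array of set B in each genotype. Prf1, perforin, had 7.77, 7.40 and 7.55 in me arrays, 7.75, 7.50 and 7.46 in he arrays, and 7.71, 7.73, 7.53 and 7.46 in WT arrays, with a mean below the median probe set and a difference of -0.031 ± 0.12. Nkg7, a granule membrane protein that takes part in granule release, had 8.89, 9.03 and 8.98 in me arrays, 8.69, 8.76 and 9.23 in he arrays, and 8.72, 8.90, 8.76 and 8.75 in WT arrays. All 3 me arrays of Nkg7 were above the WT mean of their own set, by 0.076, 0.27 and 0.17, but the difference of 0.18 ± 0.13 was within the spread, and he 3 was the highest array.

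Ctsw, cathepsin W, a protease found in T and NK cells, had 9.20, 10.33 and 9.44 in me arrays, 9.29, 10.13 and 9.87 in he arrays, and 9.28, 9.52, 10.49 and 9.96 in WT arrays. Its level differed by set, with set B arrays higher by 0.81, and the blocked difference was -0.016 ± 0.14. Serpinb6b, a serpin, had 9.24, 8.64 and 9.49 in me arrays, 8.97, 8.98 and 9.33 in he arrays, and 9.23, 9.58, 8.79 and 9.53 in WT arrays, with -0.16 ± 0.24 between me and WT and overlapping groups. Serpinb9, the serpin that inhibits granzyme B, ran over 8.65 to 9.47 in me arrays, 8.55 to 9.93 in he arrays and 8.41 to 9.95 in WT arrays. Its difference was -0.067 without the block and 0.11 with it, a change of sign, and set B was 1.07 higher. Gzmm, granzyme M, stayed below the median probe set, at 7.27 to 7.35 in me arrays, 7.19 to 7.43 in he arrays and 7.24 to 7.37 in WT arrays. Of the 11 granule genes 7 were above 0 for me minus WT in either fit, with medians of 0.11 and 0.20, and 0 passed.

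**Figure D1:**
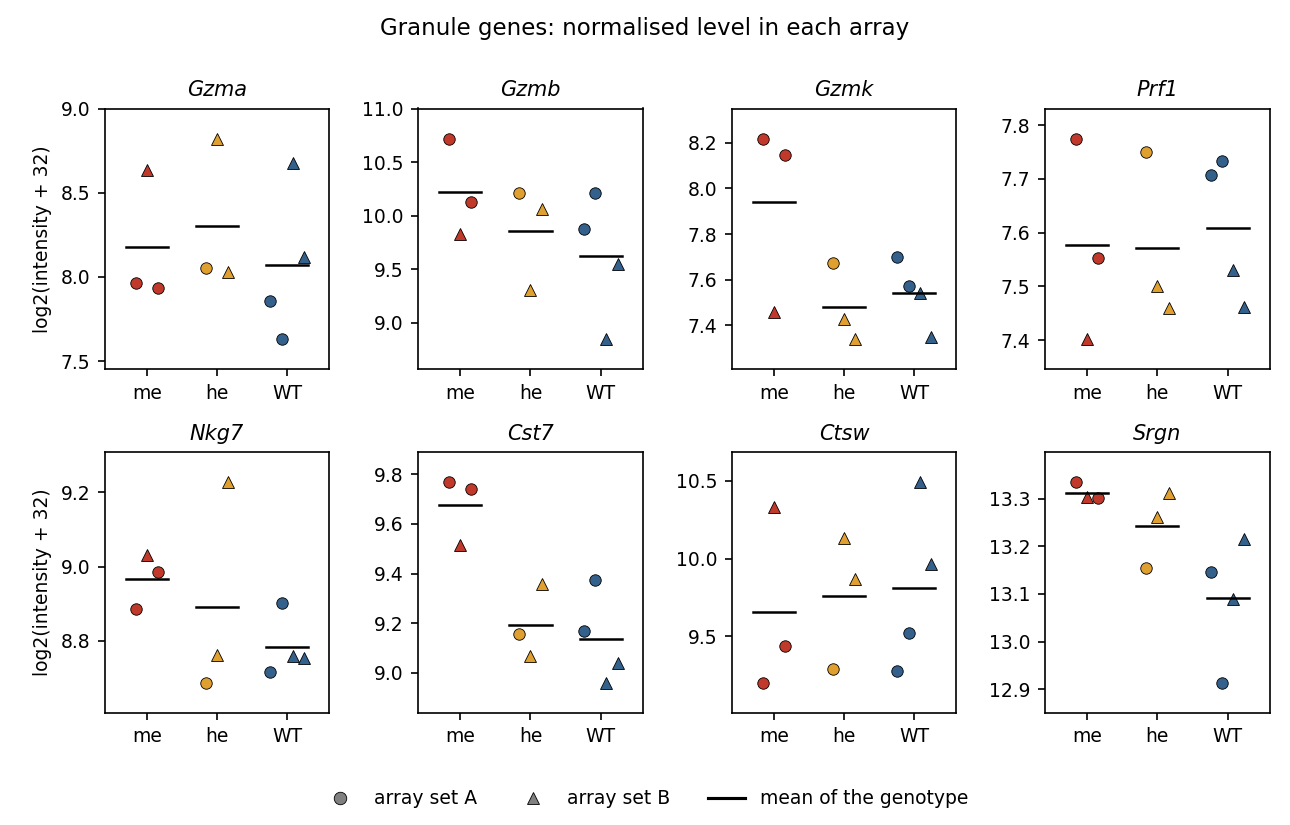
Level of 8 granule genes in each array, as log2(intensity + 32) after quantile normalisation. Each point is 1 array (circles set A, triangles set B) and the line is the mean of the genotype. In the Cst7 panel all 3 me arrays lie above every he and WT array, for Srgn they lie above every WT array, and for the other genes the genotypes overlap.

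Among the receptors and surface molecules, Klrk1 separated me from WT arrays and Klrg1 did so within each array set. Klrg1 encodes an inhibitory lectin-like receptor that binds cadherins and marks terminally differentiated CD8 T cells, NK cells and a subset of activated Treg cells. It had 12.09, 10.60 and 11.69 in me arrays, 11.66, 9.95 and 10.60 in he arrays, and 11.60, 11.07, 9.61 and 10.49 in WT arrays. Set A arrays were higher in every genotype, by 1.37 on average, and within each set all me arrays were above all WT arrays, and he 1 and he 3 were too. Between me and WT the difference was 0.77 ± 0.57 without the block and 0.55 ± 0.24 (adjusted p = 0.989) with it, a 1.46-fold higher level that did not pass. Over the settings tried its adjusted p ran over 0.81 to 1.

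Cx3cr1, the receptor of the chemokine fractalkine, which marks effector CD8 T cells and monocytes, had 7.97, 9.51 and 8.39 in me arrays, 7.89, 8.92 and 8.88 in he arrays, and 7.89, 7.96, 9.05 and 9.08 in WT arrays. Its difference was 0.13 ± 0.46 without the block and 0.32 ± 0.10 with it. The blocked value depended on where me 3 is placed, being -0.049 with me 3 counted in set B. A second, dimmer Cx3cr1 probe set, 1450019_at, had a blocked difference of -0.015 ± 0.049. Klrk1, which encodes the activating receptor NKG2D, had 7.74, 7.61 and 7.60 in me arrays, 7.76, 7.55 and 7.29 in he arrays, and 7.56, 7.56, 7.33 and 7.36 in WT arrays. The me arrays were above all WT arrays by a small margin, at a mean level below the median probe set, and the difference was 0.19 ± 0.12.

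The partners CD94 and NKG2A, which together bind the non-classical class I molecule Qa-1, were read at Klrd1 and Klrc1. Klrd1 had 8.42, 8.16 and 8.02 in me arrays, 8.21, 8.11 and 7.79 in he arrays, and 8.41, 8.17, 7.75 and 7.83 in WT arrays, with 0.16 ± 0.18 between me and WT. Klrc1 ran over 7.61 to 7.83 in me arrays, 7.45 to 7.87 in he arrays and 7.34 to 7.62 in WT arrays, with 0.21 ± 0.12. In both the genotypes overlapped. Slamf7, a receptor of the SLAM family on NK and plasma cells, had 7.95, 7.64 and 8.19 in me arrays, 7.92, 7.80 and 7.99 in he arrays, and 8.08, 8.24, 7.97 and 8.32 in WT arrays. Its blocked difference was -0.25 ± 0.12, and the he arrays lay in the range of the me arrays.

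The genes that define NK cells had mean signals below the median probe set. Ncr1, the NK receptor NKp46, had 7.57, 7.77 and 7.25 in me arrays, 7.54, 7.73 and 7.57 in he arrays, and 7.58, 7.24, 8.15 and 7.69 in WT arrays, and its highest array was WT 3. Klre1, an NK lectin-like receptor, ran over 7.38 to 7.46 in me arrays, 7.33 to 7.57 in he arrays and 7.31 to 7.52 in WT arrays. Itga2, the integrin chain CD49b, ran over 7.26 to 7.55 in me arrays, 7.27 to 7.69 in he arrays and 7.24 to 7.63 in WT arrays. With Klra8 they make 4 of 5 NK-defining markers measured, of which 0 were at or above the median probe set, and their summed intensity was 465 to 677 in me arrays, 492 to 662 in he arrays and 457 to 745 in WT arrays. Their highest sum was in a WT array.

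The probe set annotated to both Klrb1b and Klrb1c, whose target accession belongs to Klrb1c, behaved otherwise. It had 8.32, 10.23 and 8.27 in me arrays, 8.29, 9.71 and 9.56 in he arrays, and 7.95, 8.10, 9.35 and 9.29 in WT arrays. Set B arrays were higher by 1.45, and within each set all me arrays exceeded all WT arrays. The blocked difference was 0.52 ± 0.13 (adjusted p = 0.815), and 0.27 ± 0.60 without the block. A further probe set annotated to Klrb1b alone, the gene of an inhibitory lectin-like receptor, had 9.01, 10.42 and 8.76 in me arrays, 8.54, 9.83 and 9.45 in he arrays, and 8.28, 8.24, 9.01 and 9.12 in WT arrays, with a blocked difference of 0.91 ± 0.15 (adjusted p = 0.545). The he arrays also lay above the WT arrays of their own set at both probe sets. Which of the paired genes the shared probe set follows cannot be told apart.

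CD8 itself gave a reading that differs by probe set. Cd8a, the alpha chain of the co-receptor, had 7.63, 12.38 and 7.76 in me arrays, 7.54, 11.34 and 12.45 in he arrays, and 7.56, 7.66, 12.10 and 12.13 in WT arrays at its brightest probe set, 1440164_x_at. That is an average gap of 4.45 log2 units between the sets, present in every genotype, the largest of any member, and a me minus WT difference of -0.60 ± 1.78 that became 0.15 ± 0.21 with the block. A second probe set with the same suffix, 1440811_x_at, had 7.08, 11.56 and 7.13 in me arrays, 7.10, 11.14 and 11.75 in he arrays, and 7.12, 7.08, 11.49 and 11.56 in WT arrays, the same split. The other 3 probe sets, 1425335_at, 1444078_at and 1451673_at, stayed between 7.14 and 8.13 in all 10 arrays. They split in the same direction by far less. Every set B array was above every set A array at each, by 0.26, 0.39 and 0.25 on average. The _x_ suffix is Affymetrix's mark for probe sets whose probes match several sequences. Cd8b1, the beta chain, had 7.74, 7.52 and 7.43 in me arrays, 7.76, 7.57 and 7.38 in he arrays, and 7.74, 7.80, 7.57 and 7.48 in WT arrays, with a mean below the median probe set and -0.086 ± 0.12 between me and WT. Neither CD8 chain differed by genotype beyond its spread, and what the split of the Cd8a probe sets reflects was not tested.

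**Figure D2:**
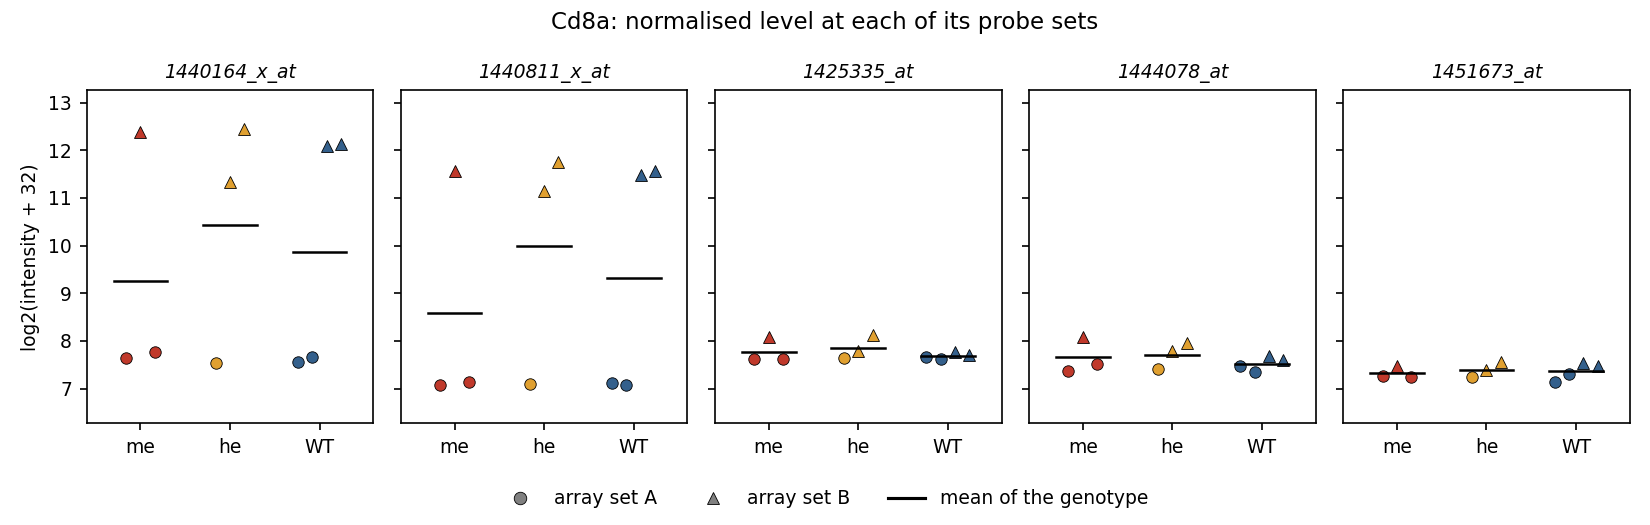
Level of Cd8a at each of its 5 probe sets, as log2(intensity + 32) after quantile normalisation, with 1 point per array (circles set A, triangles set B) and a line at the mean of the genotype. In the panels of 1440164_x_at and 1440811_x_at the triangles stand above 11 and the circles below 8 in me, he and WT alike. All points of the other 3 probe sets lie between 7.14 and 8.13, with the triangles above the circles by a smaller gap.

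Of the surface molecules not yet given, Cd7, a costimulatory molecule of T and NK cells, ran over 8.59 to 8.72 in me arrays, 7.95 to 8.70 in he arrays and 8.10 to 8.77 in WT arrays. Crtam, an adhesion receptor of activated CD8 T and NK cells, ran over 7.36 to 7.67 in me arrays, 7.41 to 7.80 in he arrays and 7.28 to 7.81 in WT arrays. Il12rb2, the signalling chain of the interleukin 12 receptor, ran over 7.17 to 8.0 in me arrays, 7.11 to 8.28 in he arrays and 7.17 to 8.29 in WT arrays and was 0.87 higher in set B. None of these 3 separated the genotypes. In this role 7 of 14 members were above 0 for me minus WT without the block and 10 of 14 with it, with medians of 0.0036 and 0.094, and 0 passed.

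Of the secreted effectors and the death ligand, 1 of 6 was above 0 for me minus WT without the block and 2 of 6 with it, with medians of -0.13 and -0.16, and none passed. Ccl5, a chemokine stored and released by cytotoxic cells, was the most variable. It had 10.17, 10.45 and 11.24 in me arrays, 10.42, 11.54 and 12.36 in he arrays, and 10.83, 11.72, 10.61 and 12.46 in WT arrays. The 4 WT arrays alone spanned 10.61 to 12.46, and the difference of -0.78 ± 0.56 lay within that spread. Against the WT mean of their own set, me 1, me 2 and me 3 stood at -1.11, -1.09 and -0.034. Ifng, interferon gamma, the main cytokine of cytotoxic and type 1 helper cells, had 8.33, 7.67 and 8.47 in me arrays, 8.38, 7.84 and 8.02 in he arrays, and 8.48, 8.43, 8.03 and 8.16 in WT arrays. Its blocked difference was -0.20 ± 0.087 (adjusted p = 0.989) and me 2 stood at -0.43 against the WT mean of set B, the farthest of the me arrays. Without me 2 the unblocked difference was 0.12, against -0.12 with it.

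Xcl1, lymphotactin, the chemokine that attracts cross-presenting dendritic cells, had 8.10, 7.89 and 7.92 in me arrays, 8.09, 7.86 and 7.88 in he arrays, and 8.06, 8.18, 8.10 and 8.09 in WT arrays. Its blocked difference was -0.15 ± 0.063 (adjusted p = 0.989), and the he arrays were as low as the me arrays. Fasl, the ligand of the death receptor Fas, had 7.63, 7.42 and 7.37 in me arrays, 7.73, 7.39 and 7.56 in he arrays, and 7.68, 7.60, 7.63 and 7.59 in WT arrays. The me arrays overlapped the WT arrays only through me 1, and the blocked difference was -0.17 ± 0.080. A second Fasl probe set, 1418803_a_at, went the other way, with overlapping groups and a blocked difference of 0.086 ± 0.075. Ccl3, an inflammatory chemokine, had 7.58, 7.59 and 7.29 in me arrays, 7.24, 7.34 and 7.46 in he arrays, and 7.32, 7.26, 7.50 and 7.26 in WT arrays, with 0.15 ± 0.10 between me and WT. Ccl4, another inflammatory chemokine, ran over 7.90 to 8.97 in me arrays, 7.81 to 9.16 in he arrays and 7.82 to 8.94 in WT arrays, and was 1.11 higher in set B. Its difference was -0.039 without the block and 0.15 with it.

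Of the regulators, Eomes separated me from the other arrays and Stat4 did so from WT within each set, while Tbx21 and Runx3 did not, and none passed. Eomes, the T-box factor of memory CD8 T cells and mature NK cells, had 7.94, 7.90 and 7.65 in me arrays, 7.35, 7.61 and 7.47 in he arrays, and 7.52, 7.34, 7.56 and 7.44 in WT arrays. All 3 me arrays were above every he and WT array, by a small margin at a mean level below the median probe set. The difference was 0.36 ± 0.099, a 1.29-fold higher level, and 0.38 ± 0.082 (adjusted p = 0.69) with the block. Its adjusted p ran over 0.576 to 1 across the settings. A second Eomes probe set, 1435172_at, had 8.18, 7.72 and 7.94 in me arrays, 7.64, 7.76 and 7.15 in he arrays, and 7.27, 7.22, 7.49 and 7.24 in WT arrays. There the me arrays were again above every WT array, the difference was 0.64 ± 0.16, he 1 lay between the me and WT arrays and he 2 within the me range.

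Stat4, the factor that carries interleukin 12 signals, had 9.12, 9.42 and 9.39 in me arrays, 8.95, 9.27 and 8.69 in he arrays, and 8.91, 8.65, 9.19 and 8.77 in WT arrays. Within each set the me arrays were above all WT arrays, although me 1 was below WT 3. The difference was 0.43 ± 0.17, and 0.45 ± 0.16 with the block, about the same within set A (0.47) and within set B (0.43). Tbx21, the gene of T-bet, the other T-box factor of the programme, had 8.45, 7.86 and 8.62 in me arrays, 8.43, 8.03 and 7.86 in he arrays, and 8.58, 8.66, 7.90 and 7.92 in WT arrays. Its level followed the set, 0.63 higher in set A, and not the genotype (0.044 ± 0.26, and -0.062 ± 0.072 with the block). Runx3, which silences Cd4 in CD8 T cells, had 9.33, 9.23 and 9.28 in me arrays, 9.22, 9.23 and 9.28 in he arrays, and 9.28, 9.44, 8.96 and 9.37 in WT arrays, a difference of 0.016 ± 0.11. Txk, a Tec family kinase, had 7.97, 7.58 and 7.79 in me arrays, 7.97, 7.80 and 7.48 in he arrays, and 7.89, 7.68, 7.72 and 7.42 in WT arrays, a difference of 0.10 ± 0.15. All 5 regulators were above 0 without the block and 4 of 5 with it, with medians of 0.10 and 0.055.

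**Figure D3:**
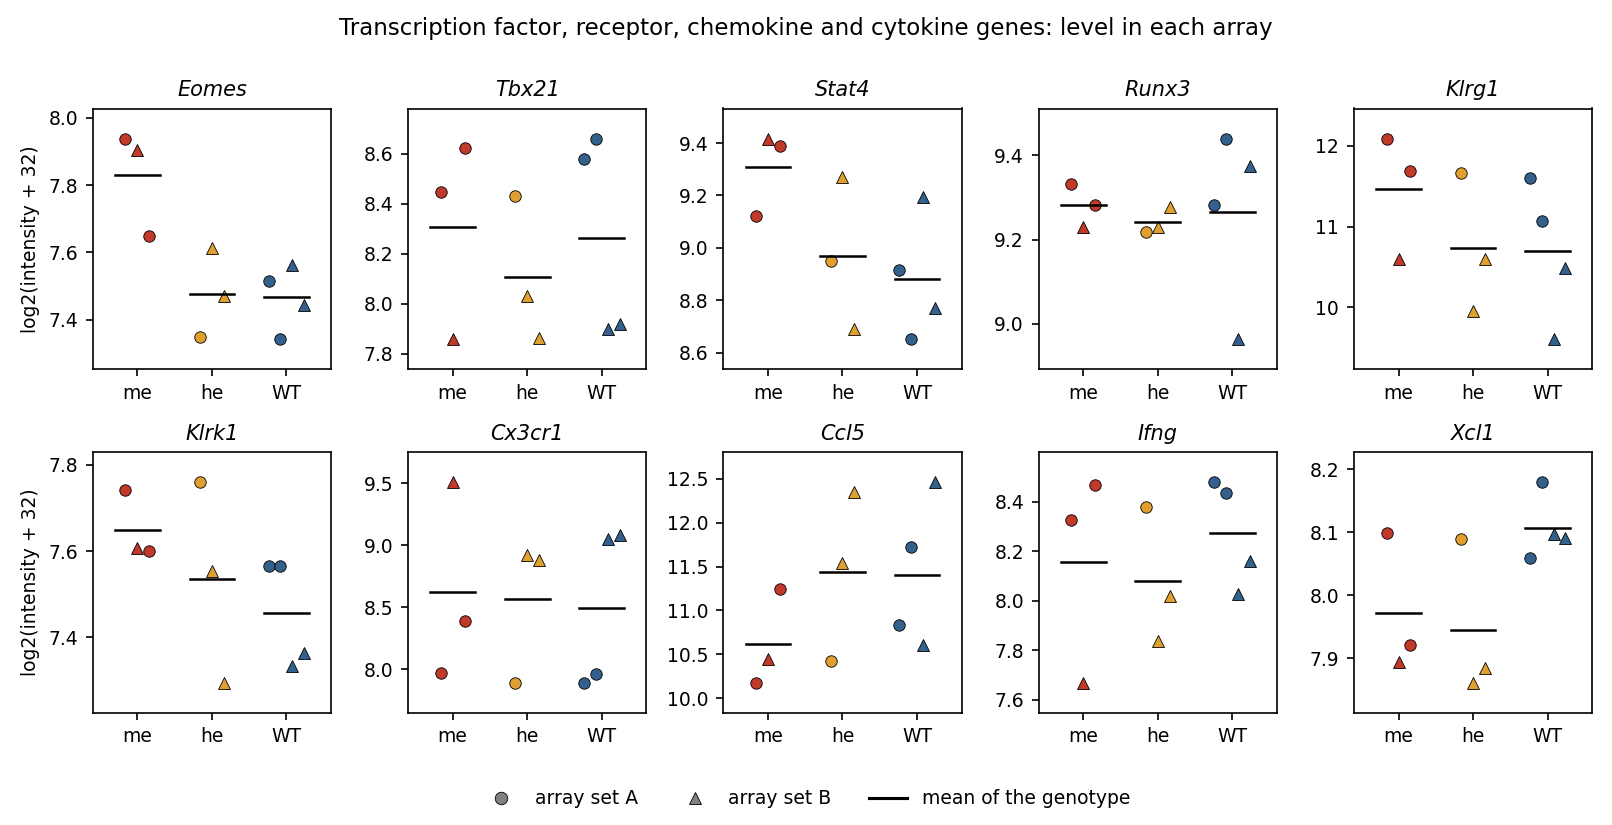
Level of 4 transcription factors, 3 receptors and 3 secreted effectors in each array, as log2(intensity + 32) after quantile normalisation, with 1 point per array (circles set A, triangles set B) and a line at the mean of the genotype. In the Eomes panel all 3 me arrays lie above every he and WT array, for Klrk1 they lie above every WT array, and in the Klrg1, Cx3cr1 and Tbx21 panels the circles and triangles separate in every genotype.

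Counted over the members at an unadjusted p under 0.05, the me minus WT contrast held 4 higher (Cst7, Eomes, Srgn and Stat4) and 0 lower without the block, where 0.331% of all probe sets were higher and 0.295% lower at that level. With the block it held 7 higher (also Cx3cr1, Gzmk and Klrg1) and 2 lower (Xcl1 and Ifng), against 1.64% and 2.67% of all probe sets. At 1 probe set per gene, 84 of 18193 genes were higher and 75 lower at that level without the block, and 382 and 541 with it. The moderated F test over the 3 genotypes gave 2 members at that level without the block, Cst7 and Eomes (0.446% of all probe sets), and 6 with it, Gzmk, Srgn, Cx3cr1 and Stat4 besides (2.86% of all probe sets). Of the 36 members, 5 differed by more than 1 log2 unit between the array sets (Cd8a, Klrg1, Ccl4, Serpinb9 and Cx3cr1), as did 3.47% of all probe sets.

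**Figure D4:**
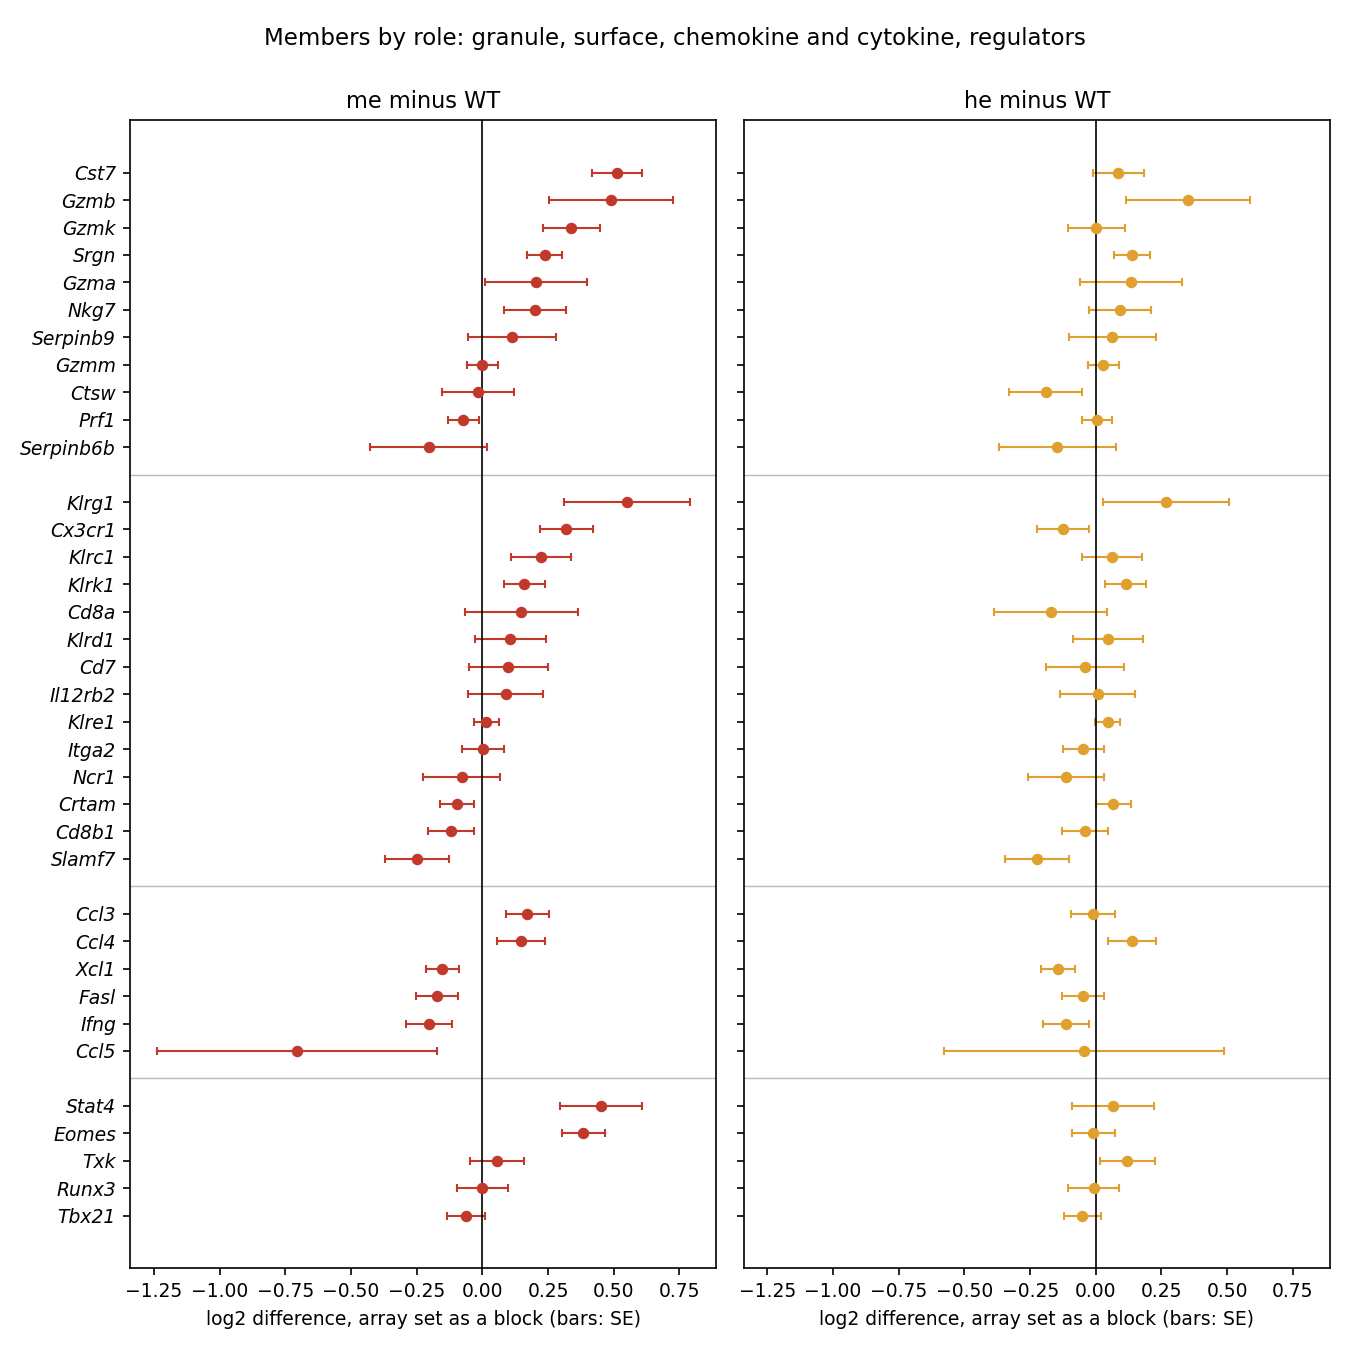
Difference of each of the 36 members from WT with array set as a block, me minus WT on the left and he minus WT on the right, in log2 units with bars of 1 SE, grouped by role and ordered within each role by the me difference. Cst7 and Klrg1 at the top of their groups and Stat4 and Eomes at the top of the regulators lie to the right of 0 in the left panel, Ccl5 lies farthest to the left, and no member passed the test in either panel.

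Heterozygous loss was read in the same way. The he and WT arrays gave 0 calls among all probe sets in either fit (0% without the block, 0% with it), and 0 of 36 members separated the 2 groups, where 0.469% of all probe sets were higher and 0.573% lower in this way. Members above 0 for he minus WT were 21 of 36 without the block (46% of all probe sets) and 19 of 36 with it (48.9%), with medians of 0.013 and 0.0032. Xcl1 alone reached an unadjusted p under 0.05, with -0.14 ± 0.063 with the block, where 1.33% of all probe sets were lower at that level. For Cst7, Eomes and Gzmk, the he means of 9.19, 7.48 and 7.48 were close to the WT means of 9.14, 7.47 and 7.54. This did not hold throughout. The he mean of Srgn, 13.24, lay between 13.09 in WT and 13.31 in me arrays. At the second Eomes probe set the he mean was 7.52, against 7.31 in WT and 7.95 in me arrays. The blocked he minus WT differences of Gzmb and Klrg1 were 0.35 ± 0.24 and 0.27 ± 0.24.

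Between me and he arrays there were again 0 calls (0% without the block, 0% with it). Cst7 and Eomes were higher in every me array than in every he array, 2 of 36 members against 1.61% of all probe sets, and 0 were lower in this way (1.1%). At the second Eomes probe set me and he arrays overlapped, with he 2 at 7.76 above me 2 at 7.72. Cst7 differed by 0.48 ± 0.13, Eomes by 0.35 ± 0.11 and Gzmk by 0.46 ± 0.20, the 3 members at an unadjusted p under 0.05 (0.444% of all probe sets, higher). With the block Cx3cr1 joined them, higher by 0.44 ± 0.11 (1.69% of all probe sets), and Crtam was lower, -0.16 ± 0.072 (1.53% of all probe sets). Members above 0 were 23 of 36 in both fits, where 54.1% and 47.2% of all probe sets were. At 1 probe set per gene, 9732 and 9428 of 18193 genes were. The 3 comparisons share arrays, so these values are not independent of those against WT. In 13 of 36 members the means, taken without the block, ran me over he over WT, and in 5 of 36 the reverse. The same order was not counted over all probe sets, so these counts cannot be read as a trend with the lost copies.

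**Figure D5:**
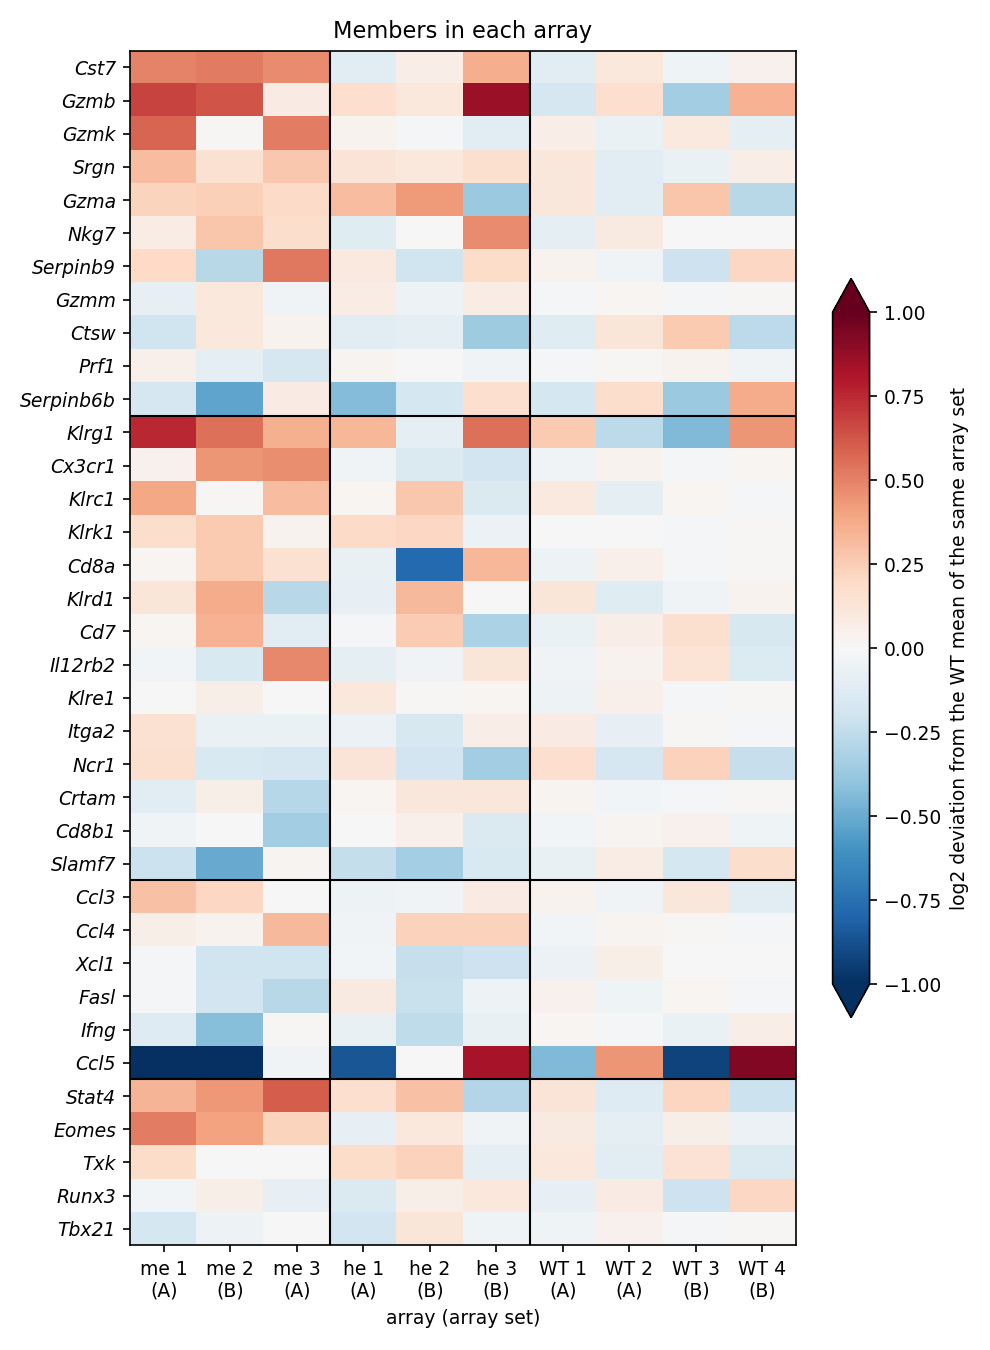
Deviation of each member in each array from the mean of the WT arrays of the same array set, in log2 units on a colour scale clipped at -1 and 1, with me arrays at left, then he, then WT, and rows grouped by role. The rows of Cst7, Stat4 and Eomes are red in all 3 me arrays, the Gzmb row is darkest in he 3, and the Ccl5 row varies as widely among WT arrays as among me arrays.

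Promoters of the members were read for what the genes share beyond the list. RefSeq promoters on GRCm38.p6, each 250 bases before to 50 after a start site, were at hand for 29 of the 38 members, 36 promoters in all. On either strand, the RUNX motif TGTGGT was found in 19 of the 36 promoters (18 of the 29 members), and in 16.8% of 32851 promoters of all genes. The T-box letters GGTGTGA were found in 4 of 36 (3.98% of all promoters) and the STAT letters TTCNNNGAA in 5 of 36 (8.3%). The motifs share no position in the promoters shown, and a match is a description of the letters only. Shown first are the promoters of the 4 members whose me arrays all lay above all WT arrays, with matches in capitals on the plus sense of the gene (a motif on the other strand appears as its reverse complement).
Cst7 promoter (chr2:150570165-150570464, plus strand): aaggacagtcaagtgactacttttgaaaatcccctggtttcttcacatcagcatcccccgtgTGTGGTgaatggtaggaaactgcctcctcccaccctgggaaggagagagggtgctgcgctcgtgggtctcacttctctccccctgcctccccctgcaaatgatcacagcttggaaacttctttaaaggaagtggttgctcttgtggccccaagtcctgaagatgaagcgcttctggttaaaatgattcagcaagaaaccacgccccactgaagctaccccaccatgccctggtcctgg
Srgn promoter, first start (chr10:62527396-62527695, minus strand): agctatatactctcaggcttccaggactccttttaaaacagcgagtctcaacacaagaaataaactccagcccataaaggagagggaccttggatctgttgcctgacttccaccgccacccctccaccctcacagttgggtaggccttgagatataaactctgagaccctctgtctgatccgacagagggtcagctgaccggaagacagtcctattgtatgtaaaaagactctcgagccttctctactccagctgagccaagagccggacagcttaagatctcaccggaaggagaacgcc
Srgn promoter, second start (chr10:62507708-62508007, minus strand): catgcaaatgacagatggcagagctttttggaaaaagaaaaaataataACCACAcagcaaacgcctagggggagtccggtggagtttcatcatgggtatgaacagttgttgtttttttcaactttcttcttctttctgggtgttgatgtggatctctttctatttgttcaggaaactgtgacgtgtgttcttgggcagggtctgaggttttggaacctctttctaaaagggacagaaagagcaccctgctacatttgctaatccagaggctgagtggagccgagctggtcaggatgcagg
Klrk1 promoter (chr6:129623815-129624114, minus strand): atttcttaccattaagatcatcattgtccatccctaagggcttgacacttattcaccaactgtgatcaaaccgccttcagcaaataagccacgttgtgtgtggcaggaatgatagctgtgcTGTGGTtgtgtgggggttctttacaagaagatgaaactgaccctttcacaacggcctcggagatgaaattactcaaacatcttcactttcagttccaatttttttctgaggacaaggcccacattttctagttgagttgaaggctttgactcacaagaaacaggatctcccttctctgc
Eomes promoter (chr9:118477939-118478238, plus strand): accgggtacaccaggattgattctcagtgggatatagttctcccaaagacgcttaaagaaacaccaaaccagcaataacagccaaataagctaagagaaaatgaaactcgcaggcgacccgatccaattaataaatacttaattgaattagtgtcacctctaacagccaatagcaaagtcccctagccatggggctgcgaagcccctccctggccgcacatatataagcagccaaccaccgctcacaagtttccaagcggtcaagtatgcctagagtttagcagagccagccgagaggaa
The Cst7 promoter held 1 RUNX match, whose first base lay at -188 from the start site, the Klrk1 promoter 1 at -129, and the second Srgn promoter 1 on the other strand at -202. The Eomes promoter and the first Srgn promoter held none of the 3 motifs. The promoters of Gzmb and Nkg7 are shown as examples with several matches and were chosen for them. Of the other members whose genotypes overlapped, some held none, such as Serpinb6b, Cd8a, Fasl and Tbx21. Others held a RUNX match, such as Gzma, Prf1, Ncr1 and Klrc1.
Gzmb promoter (chr14:56262285-56262584, minus strand): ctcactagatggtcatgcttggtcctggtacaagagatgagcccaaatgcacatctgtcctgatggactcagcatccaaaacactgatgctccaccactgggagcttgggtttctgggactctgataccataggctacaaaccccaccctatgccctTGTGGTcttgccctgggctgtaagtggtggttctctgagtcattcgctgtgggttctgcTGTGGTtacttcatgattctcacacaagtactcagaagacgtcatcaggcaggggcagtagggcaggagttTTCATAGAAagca
Nkg7 promoter (chr7:43436888-43437187, plus strand): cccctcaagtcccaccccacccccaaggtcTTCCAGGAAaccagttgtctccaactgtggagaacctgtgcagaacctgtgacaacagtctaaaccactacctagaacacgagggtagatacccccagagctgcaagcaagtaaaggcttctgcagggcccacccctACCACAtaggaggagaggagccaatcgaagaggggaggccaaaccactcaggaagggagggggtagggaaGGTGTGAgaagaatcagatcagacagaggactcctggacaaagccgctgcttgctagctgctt
The Gzmb promoter held 2 RUNX matches, at -93 and -34, and a STAT match at 38. The Nkg7 promoter held all 3 motifs, with the T-box letters at -13, a RUNX match on the other strand at -83 and a STAT match at -220.

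Further genes of the cytotoxic programme were read in the same way, and none passed. Of 21 genes of granule release, sorting and processing and further granzymes, 16 were above 0 for me minus WT without the block and 17 with it. The median was 0.070 in both fits. Among all probe sets 49.9% were above 0 without the block and 46.3% with it. Ctsc, cathepsin C, which activates granzymes and is held by cystatin F, had 11.06, 11.15 and 11.14 in me arrays, 10.86, 11.02 and 11.10 in he arrays, and 10.96, 10.77, 11.12 and 11.11 in WT arrays, a blocked difference of 0.15 ± 0.064. Rab27a, the small GTPase that docks lytic granules, had 9.01, 9.71 and 9.29 in me arrays, 8.94, 9.66 and 9.62 in he arrays, and 8.93, 8.86, 9.47 and 9.62 in WT arrays, a blocked difference of 0.22 ± 0.074. Of 27 further NK and CD8 receptors and adaptors measured, 15 were above 0 without the block and 17 with it. Blocked differences were -0.39 ± 0.11 for Cd27 and 0.28 ± 0.097 for Il18rap. Cxcr6, a chemokine receptor of effector and tissue T cells, had 8.79, 8.52 and 8.44 in me arrays, 9.33, 9.66 and 8.73 in he arrays, and 9.51, 8.94, 9.60 and 9.11 in WT arrays, with all me arrays lower than all WT arrays and a difference of -0.71 ± 0.24. Cxcr6 was the only gene of its list to separate me from WT arrays, where 0.835% of all probe sets were lower in this way. Of 17 further transcription factors measured, 10 were above 0 in both fits. Hopx had a blocked difference of 0.48 ± 0.15, with overlapping groups. Bhlhe40, a factor of activated and cytokine-producing T cells, had 10.96, 11.23 and 10.91 in me arrays, 10.33, 10.41 and 10.25 in he arrays, and 10.20, 10.47, 10.15 and 10.55 in WT arrays. Every me array of Bhlhe40 exceeded every other array, and the difference was 0.69 ± 0.12 (adjusted p = 0.458 with the block). No other gene of its list separated me from WT arrays, where 0.802% of all probe sets were higher in this way. Of 10 further cytokines and death ligands measured, 3 were above 0 without the block and 2 with it. Csf2, the gene of the myeloid growth factor GM-CSF, had 7.63, 7.78 and 7.61 in me arrays. It had 7.95, 7.75 and 8.02 in he arrays, and 7.75, 7.98, 8.10 and 8.17 in WT arrays. The me minus WT difference was -0.33 ± 0.11.

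Markers of Treg cells, T cells and other cells were counted beside the members, and none passed. Treg markers were above 0 for me minus WT in 6 of 7 genes without the block and 5 of 7 with it. Their mean level was 10.85 to 10.95 in me arrays, 10.70 to 10.90 in he arrays and 10.64 to 10.81 in WT arrays. In 0 of the 7 were all me arrays above all WT arrays. T cell markers were above 0 in 3 of 6 in both fits, with overlapping mean levels. Plasma cell markers were above 0 for me minus WT in 6 of 7 genes without the block and 4 of 7 with it, where 49.9% and 46.3% of all probe sets were. Their summed intensity was 5636 to 16011 in me arrays, 3985 to 9090 in he arrays and 3973 to 9159 in WT arrays, with overlapping ranges. Their mean level did not overlap, at 9.04 to 9.72 in me arrays, 8.79 to 8.94 in he arrays and 8.70 to 8.94 in WT arrays. In 3 of the 7 all me arrays were above all WT arrays, as in 0.802% of all probe sets. Neutrophil markers were above 0 in 6 of 7 without the block and 6 of 7 with it, with overlapping sums of 981 to 1877 in me arrays, 1012 to 1493 in he arrays and 961 to 1418 in WT arrays. Slamf7, a member found on NK and plasma cells, had blocked differences of -0.25 ± 0.12 for me minus WT and -0.22 ± 0.12 for he minus WT. Whether its level follows plasma cells was not tested. Macrophage and monocyte markers were above 0 in 6 of 8 without the block and 6 with it, B cell markers in 4 and 5 of 7, and dendritic cell markers in 5 and 4 of 7. All 4 measured markers of gamma delta T and innate lymphoid cells were below 0 in both fits, with sums of 936 to 1206 in me arrays, 1071 to 2630 in he arrays and 1442 to 2930 in WT arrays. Their mean level was 8.10 to 8.23 in me arrays, 8.21 to 9.15 in he arrays and 8.46 to 8.96 in WT arrays. In 3 of the 4 all me arrays were below all WT arrays, as in 0.835% of all probe sets. The ratio of the Gapdh 3′ to 5′ control probe sets, a sign of RNA length after amplification, was 10.9, 9.92 and 13.8 in me arrays, 7.88 to 9.71 in he arrays and 7.84 to 9.53 in WT arrays. Every me ratio was above every he and WT ratio. The Cre control probe sets had mean intensities of 11892, 6158 and 7261 in me arrays and 15914, 9015 and 8100 in he arrays. They had 16082, 16077, 9475 and 8665 in WT arrays. Within each array set the me arrays had the lowest Cre values. The part of these markers and controls in the values of Cst7, Eomes, Srgn and Stat4 was not tested.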

How the data were processed

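The 10 samples were each measured on 1 array. The file the authors deposited holds linear intensity values, and what was done to summarise and scale them is not given in the sources used here. The lowest array median was 147.7 and the highest 187.9. Of 45101 probe sets, 64 controls were left out. Values were taken as log2(intensity + 32) and quantile normalised. A single gene symbol was annotated to 34945 probe sets, more than 1 to 932, and 9160 had no symbol. Tests were limma 3.58.1 in R 4.3.3 (lmFit, eBayes) on all 10 arrays with 3 genotypes, 7 residual degrees of freedom (6 with array set as a block), Benjamini-Hochberg adjustment over 45037 probe sets and a threshold of 0.05. Every p printed is adjusted in this way. The fits were tested on simulated data. The number of arrays limits the precision. Members named with each array's value were those of a fixed list and up to 3 more per role with the smallest p. Further list genes were named among the 4 of each list with the smallest p. Members, lists, comparisons and array sets were chosen with earlier results of these data known. Alternatives were other blocks, scalings, pseudocounts of 1 and 128, a filter on low values, a robust prior, fits on the 2 groups alone or within a set, all probe sets of a gene, and leaving out each array.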

Additional observations from a re-analysis of the deposited data

How the results depend on the processing

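With these few arrays no member passed under any setting, and the sign of some differences depended on the setting. The counts of calls over all probe sets and of members at an unadjusted p under 0.05 depended on the setting, and the cause was not tested. For me against WT the array set block gave 3 calls over all probe sets, against 0 without it. Members under 0.05 were 4, and became 9 with the array set block, 8 with me 3 counted in set B, 7 with array set and sex as blocks, 2 when dimmer probe sets were left out and 1 with centring on the array median. The share of all probe sets under 0.05 moved too, at 0.331% higher and 0.295% lower without a block and 1.64% and 2.67% with the array set block, so the members' counts cannot be read alone. For me against he they were 3, and became 5 with the array set block, 6 with set and sex, 1 without the dimmer ones and 1 with centring. For he against WT they were 0, and became 1 with the array set block, 1 with me 3 in set B and 1 with set and sex. The median me minus he difference over members was 0.13 within set A, against 0.028 over all arrays.

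Leaving out each array in turn gave 0 to 2 calls in the whole table for each of me against WT, me against he and the F test, and members of he against WT under 0.05 numbered 0 to 1. With the array set block it gave 0 to 5 calls for me against WT, 0 to 2 between me and he and 0 to 2 for the F test, 0 to 3 members under 0.05 for he against WT and 3 to 6 for me against he. The highest of these counts of calls came without me 2, or, for the blocked me against WT, without he 2. No member was among the calls.

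With array set as a block, the me minus WT difference changed sign to -7.5e-05 for Gzmm, 0.11 for Serpinb9, 0.15 for Cd8a, 0.0025 for Itga2, 0.089 for Il12rb2, 0.15 for Ccl4 and -0.062 for Tbx21. With replicate number as a block, the me minus WT difference changed sign to -0.00059 for Gzmm, 0.22 for Serpinb9, 0.15 for Cd8a, 0.0027 for Itga2, 0.054 for Il12rb2, 0.14 for Ccl4 and -0.071 for Tbx21. With array set and sex as blocks, the me minus WT difference changed sign to -0.0062 for Gzmm, 0.0077 for Ctsw, 0.13 for Serpinb9, 0.14 for Cd8a, 0.0040 for Itga2, 0.14 for Il12rb2, 0.17 for Ccl4, -0.056 for Tbx21 and -0.037 for Runx3. With me 3 counted in set B, the me minus WT difference changed sign to 0.012 for Prf1, 0.031 for Crtam and -0.049 for Cx3cr1. Averaging every probe set of a gene, the me minus WT difference changed sign to 0.0032 for Serpinb9. With no normalisation between arrays, the me minus WT difference changed sign to -0.0051 for Tbx21 and -0.0085 for Runx3. Leaving out each array in turn, the me minus WT difference ran over -0.12 to 0.31 for Gzma, -0.0092 to 0.037 for Gzmm, -0.13 to 0.056 for Prf1, -0.49 to 0.070 for Ctsw, -0.29 to 0.22 for Serpinb9, -0.34 to 0.082 for Serpinb6b, -2.16 to 0.21 for Cd8a, -0.28 to 0.024 for Ncr1, -0.12 to 0.058 for Crtam, -0.12 to 0.045 for Itga2, -0.32 to 0.45 for Cx3cr1, -0.25 to 0.17 for Il12rb2, -0.35 to 0.18 for Ccl4, -0.28 to 0.12 for Ifng, -0.11 to 0.27 for Tbx21, -0.085 to 0.074 for Runx3. The me minus he difference ran over -0.12 to 0.094 for Crtam, -0.38 to 0.39 for Cx3cr1. The difference of Cst7, Eomes, Stat4, Srgn, Gzmb, Gzmk and Klrg1 kept its sign under every setting run.

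Replicate numbers of the labels did not pair the samples: correlations of same-numbered deviations were 0.903, -0.873 and -0.514 for me and WT, 0.941, -0.716 and 0.727 for he and WT, and 0.927, 0.688 and -0.397 for me and he. The replicate block gave 3 members under 0.05 against WT in me arrays, 3 between me and he, and changed no call.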
